A study of Mus musculus with 12 samples.

Results

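Elastic fibre genes encode the proteins that give an artery its recoil. Here they are 10 genes picked by symbol from the deposited count table, and 10 of 10 have a row among the 25284 genes of that table. They are Eln, Fbn1, Fbn2, Fbln1, Fbln2, Fbln5, Efemp2, Mfap4, Mfap5 and Lox. Their RNA was measured in thoracic aorta of male ApoE-/- mice on a C57BL/6 background, which lack apolipoprotein E, a protein that clears lipoprotein particles from blood. All mice were 18 weeks old at the end and had been fed a high fat, cholesterol enriched diet. The 6 mice called A1 to A6 received AZ6983, an agonist of α7nAChR (a receptor for acetylcholine that is an ion channel), from osmotic minipumps over 8 weeks (daily dose 50 µmol per kg), and the 6 control mice called C1 to C6 had pumps with vehicle, cyclodextrin in saline. Each library is the whole vessel of 1 mouse, so fewer cells of a type and less RNA per cell cannot be told apart.

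Elastic fibres are made by smooth muscle cells and fibroblasts, mostly early in life, and last for years. Fibrillins first form microfibrils outside the cell, and tropoelastin, the soluble product of Eln, is then laid onto them with the help of fibulins. Lysyl oxidase, the product of Lox, finally crosslinks tropoelastin into insoluble elastin. In atherosclerosis the elastic layers of the aorta can fragment where enzymes from macrophages and neutrophils cut them.

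Each mouse gave 23810036 to 35864666 counts on genes. Levels are given as CPM, a gene's counts scaled to a common library size after edgeR's TMM normalisation. The smooth muscle markers Myh11, Acta2, Cnn1, Tagln, Smtn and Lmod1 summed to 10423 to 18008 CPM, so the libraries held smooth muscle RNA. They also held fat, with 5 fat markers at 3901 to 9087 CPM. Skeletal muscle markers summed to 2.64 to 300 CPM and cardiac muscle markers to 4.43 to 127 CPM. Apoe, the deleted gene, had 117 to 306 counts per control and 214 to 311 with AZ6983. The library of mouse A5 stood apart, with the lowest smooth muscle sum, the highest fat sum and 30.2% of its counts on 10 genes, where the other 11 mice had 16.0% to 22.1%. In mouse A4 the 5 T cell and thymus markers summed to 899 CPM against 1.93 to 35.0 CPM elsewhere. Reads that the counting assigned to no gene (below, reads that fell on no gene) were 8.02% to 12.7% in control libraries. They were 11.2% to 14.9% in AZ6983 libraries (exact permutation test, two-sided, p = 0.0108). The sources do not say whether introns were counted, so such reads may lie inside genes. Library numbers in the column names, whose meaning the labels do not give, are 3 to 7 and 12 for controls and 1, 2 and 8 to 11 for AZ6983. The column of A1 carries only part of the number of its mouse, which no other label contains.

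No elastic fibre gene passed 10% FDR (false discovery rate) between AZ6983 and control mice. For all genes the share called was 0% (0 of 15857, edgeR's quasi-likelihood test with Benjamini-Hochberg adjustment), with 1616 genes at an unadjusted p under 0.05. DESeq2 run on every gene called 92 genes and limma-voom called 0, and neither called an elastic fibre gene. At an unadjusted p under 0.05, 3 of the 9 elastic fibre genes that could be tested were higher in AZ6983 mice and 0 were lower, where 10.2% of all genes had such a p, 7.38% being higher and 2.81% lower. These 3 were Eln, Fbn1 and Fbln2. The count was 1 in limma-voom and 0 with upper quartile scaling, with library totals, without a filter, or without any of the mice C2, C3, C4, C5, A1 or A2. The median log2 fold change was 0.14 over the 9 genes and 0.01 over all genes tested, and 7 of the 9 lay above 0 (52.4% of all genes did). In none of the 10 genes were the groups free of overlap, which happened in 0.41% of all genes.

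**Figure D1:**
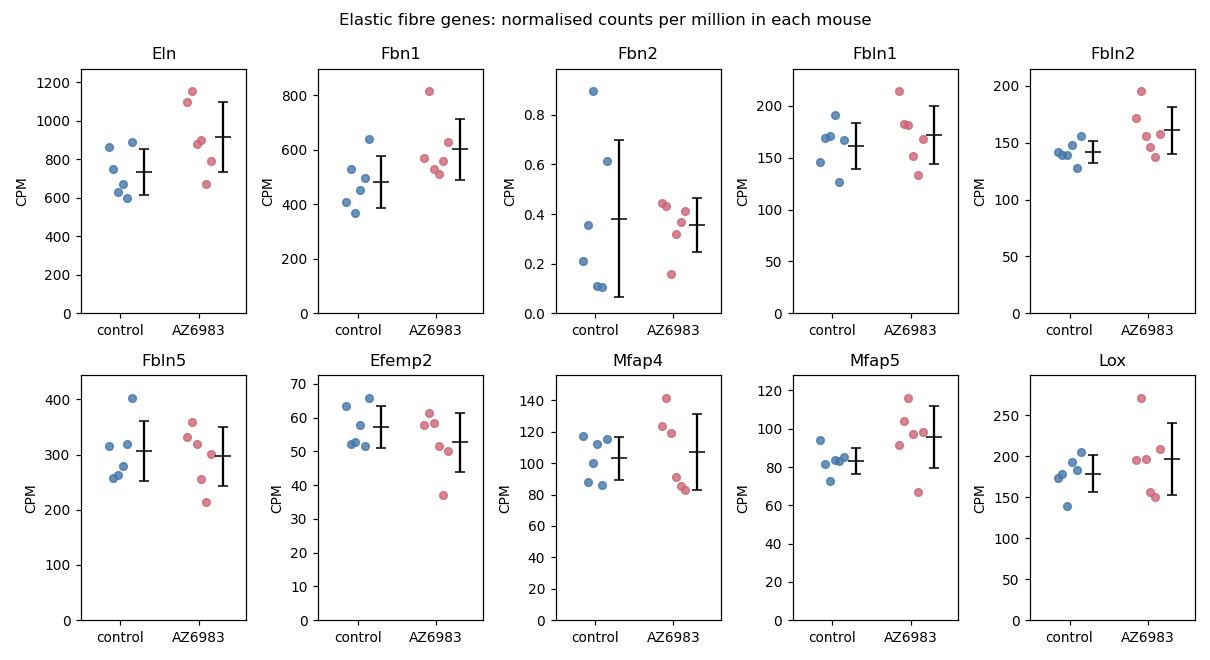
Level of the 10 elastic fibre genes in each mouse (points, CPM on a linear axis), with the mean and SD of 6 mice per group beside them. The groups overlap in every panel, and for Eln 3 AZ6983 mice lie above the highest control at 888 CPM.

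Eln, the gene of elastin itself, was at 597 CPM in the lowest, 712 CPM in the median and 888 CPM in the highest control mouse. In AZ6983 mice it was at 670, 888 and 1155 CPM. Mice A1, A2 and A4 lay above every control, A4 by little, while A5 lay inside the control range. The means were 734 ± 121 CPM for controls and 914 ± 184 CPM for AZ6983 (SD, n = 6 each). The log2 fold change was 0.32 (standard error, SE, 0.145, unadjusted p = 0.0481, edgeR adjusted p = 0.487), and an exact permutation test of log2 CPM gave p = 0.0714. With each mouse left out in turn the log2 fold change was 0.23 (without A2) to 0.38 (without C6). The gene lies at chr5:134702593-134747323 on the minus strand (GRCm38, the mm10 build), and its longest annotated transcript has 37 exons.

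Fbn1 encodes fibrillin-1, the main protein of microfibrils, and lies at chr2:125300594-125507993 on the minus strand. Control mice were at 370 CPM (lowest), 473 CPM (median) and 640 CPM (highest), and AZ6983 mice at 509, 565 and 817 CPM. All 6 AZ6983 mice were above the control median, but only A2 was above the highest control, C6. With 482 ± 96.6 CPM for controls and 602 ± 113 CPM for AZ6983 (SD, n = 6 each), the log2 fold change was 0.32 (SE 0.146, edgeR adjusted p = 0.487; exact permutation p = 0.0606). Without A2 it was 0.20. The share of reads that fell on no gene was larger in AZ6983 libraries and largest in A2, and a fit that included it gave Fbn1 a log2 fold change of -0.03. Because this share differed between the groups, that fit cannot tell it apart from AZ6983. Eln had 0.31 in that fit, with an adjusted p of 1 for both genes from edgeR.

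Fbn2, fibrillin-2, is known as the fibrillin of the embryo. It had 3 to 26 counts per mouse (3 to 26 in controls and 4 to 12 in AZ6983 mice), too few for edgeR's filter. Its mean was 0.382 ± 0.316 CPM for controls and 0.355 ± 0.108 CPM for AZ6983 (SD, n = 6 each). On the log2 scale the mean was higher with AZ6983, by 0.16. A difference was not detectable at this depth (exact permutation test of log2 CPM, p = 0.736).

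The microfibril-associated glycoproteins bind fibrillin or sit beside it. Mfap5, the gene of MAGP-2, was at 72.7, 83.4 and 93.9 CPM in the lowest, median and highest control and at 67.0, 97.8 and 116 CPM in AZ6983 mice. In 4 of 6 AZ6983 mice it was above every control, and in A5 it was below every control. The log2 fold change was 0.20 (SE 0.108, edgeR adjusted p = 0.535), and with a mouse left out it ran from 0.13 without A3 (adjusted p 0.627) to 0.26 without A5 (adjusted p 0.244). For Mfap4 the AZ6983 mice lay on both sides of the controls, 3 above and 2 below all of them (82.9 to 142 CPM against 86.3 to 117 CPM in controls). Its log2 fold change of 0.06 (SE 0.140) was within the spread between mice.

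Fibulins are extracellular glycoproteins that bridge tropoelastin and microfibrils. Fbln2 varied least of the 9 genes tested, with a within-group SD of 0.14 on the log2 scale, and lies at chr6:91212455-91272540 on the plus strand. It was at 128, 141 and 156 CPM in the lowest, median and highest control and at 137, 157 and 196 CPM in AZ6983 mice. In 4 of 6 AZ6983 mice it was above every control. The log2 fold change was 0.18 (SE 0.0822, edgeR adjusted p = 0.487; exact permutation p = 0.0649). It was 0.10 without A2 and 0.11 in the fit with the share of reads that fell on no gene. For Fbln1 control mice were at 127 to 191 CPM and AZ6983 mice at 133 to 214 CPM, a log2 fold change of 0.09 (SE 0.119). Without C5 it was 0.01, without A1 0.02, without A2 0.06 and without C4 0.14.

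Fbln5 and Efemp2 encode the fibulins whose loss in mice disrupts elastic fibres, and both had a log2 fold change below 0 with all mice in the fit. Fbln5 was at 258, 298 and 403 CPM in the lowest, median and highest control and at 215, 310 and 358 CPM in AZ6983 mice. The highest mouse was control C6 and the lowest was A5. Fbln5 lies at chr12:101746565-101819055 on the minus strand and Efemp2 at chr19:5473954-5482517 on the plus strand. The log2 fold change of Fbln5 was -0.05 (SE 0.137, edgeR adjusted p = 0.918), and without C6 it was 0.05. Efemp2 was at 51.6, 55.2 and 65.9 CPM in control aortas and at 37.0, 54.8 and 61.2 CPM in AZ6983 mice. Mouse A5 was far below the other mice for Efemp2, and the log2 fold change was -0.12 with A5 (SE 0.113, edgeR adjusted p = 0.697) and -0.06 without it.

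Lox was at 139, 181 and 205 CPM in the lowest, median and highest control and at 151, 196 and 272 CPM in AZ6983 mice. Mouse A2 was the highest of all, and the log2 fold change of 0.14 (SE 0.137, edgeR adjusted p = 0.715) was 0.01 without A2. In the fit with the share of reads that fell on no gene it was -0.08.

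The level of different genes can be compared only per length, here as CPM per kb of annotated exon. On this scale Eln was the most abundant of the 10, with a median of 102 CPM per kb over the 12 mice (73.7 to 143), above 98.0% of the genes tested that have a length. Mfap4 followed at 55.1, then Fbln5 at 44.6, Fbn1 at 43.7, Lox at 39.4 and Fbln1 at 38.5 CPM per kb. Mfap5 at 24.6, Fbln2 at 23.1 and Efemp2 at 14.6 were lower, and Fbn2 was at 0.0274 CPM per kb. Eln was above Mfap4 in 12 of 12 mice, and so were Fbln1 above Mfap5 and Fbln2 above Efemp2. Fbln5 was above Fbn1 in only 7 of 12 mice, Lox above Fbln1 in 6 and Mfap5 above Fbln2 in 7, so these neighbours did not differ beyond their spread. All annotated exons of Eln together cover 8.10 kb, whereas its longest transcript has 3.85 kb and would give 214 CPM per kb.

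**Figure D2:**
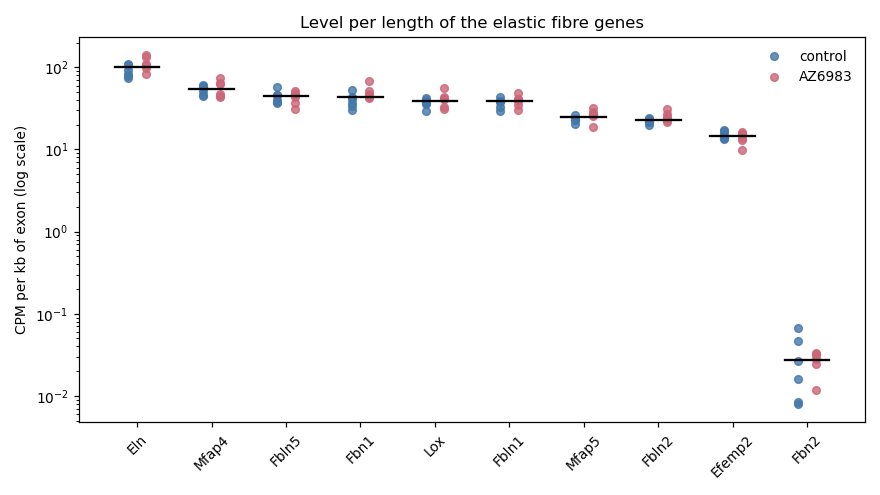
CPM per kb of annotated exon (log axis) for each gene, with 1 point per mouse (blue control, red AZ6983) and a line at the median of 12 mice, in order of the median. Eln stands at 102 and Fbn2 at 0.0274, and the 5 genes from Mfap4 to Fbln1 lie between 38.5 and 55.1.

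The genes varied together across mice. In all 36 pairs of the 9 tested genes Pearson's r of log2 CPM was above 0, with a median of 0.57 and a range of 0.06 (Fbn1 with Efemp2) to 0.87 (Eln with Fbln2). The same was not computed for pairs of other genes, so it is not shown to be particular to these genes. After Eln with Fbln2 came Fbln5 with Efemp2 (0.83), Fbln2 with Lox (0.79) and Fbn1 with Lox (0.78). Mouse A2 was among the highest 3 mice in 9 of 9 genes and mouse A5 among the lowest 3 in 8 of 9. Averaged over the 9 genes, A2 was 0.37 above and A5 0.29 below the mean of the 12 mice on the log2 scale (-0.29 for A5). A2 also had the highest sum of 6 fibroblast markers (2488 CPM, where the other 11 mice had 1307 to 1993), and the sums of A5 for smooth muscle (10423 CPM, the others 13438 to 18008) and fat (9087 CPM, the others 3901 to 7322) were the lowest and the highest. Across the 12 mice, r of Eln with the marker sum was 0.70 for fibroblast, 0.59 for macrophage and 0.54 for smooth muscle. It was -0.41 for endothelium and -0.75 for fat. The sums of the other marker lists had r between -0.07 and 0.27. The values for fibroblast, macrophage, smooth muscle and fat are of the size of r between the elastic fibre genes. These are descriptions, and the part of these cell types in the pattern was not tested. Each of the named sums overlapped between the groups (exact permutation p = 0.396 for fibroblast, 0.797 for macrophage, 0.662 for smooth muscle, 0.639 for endothelium and 0.286 for fat).

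**Figure D3:**
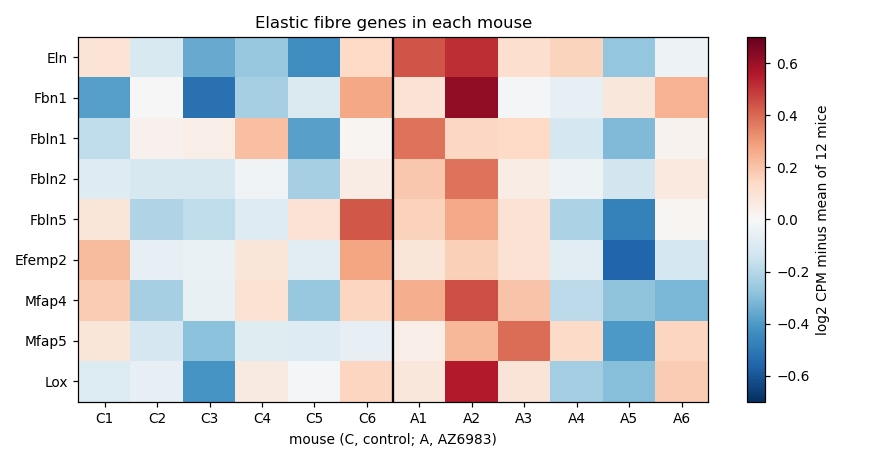
Log2 CPM minus the mean of the 12 mice for the 9 tested genes (rows) in each mouse (columns, controls left of the line), red above and blue below the mean. Column A2 is red throughout and column A5 is blue except for Fbn1.

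Of the 9 relations between Eln and another elastic fibre gene, the one with Fbln2 was past an adjusted p of 0.05 by both measures (Pearson's r = 0.87, permutation p = 0.00013, adjusted p = 0.00117; Spearman's rho = 0.83, permutation p = 0.00156, adjusted p = 0.014). Without A2 and C5, the mice farthest from the median of Eln, r was 0.76. Among the 6 controls alone r was 0.69 (exact permutation p = 0.115), and among the 6 AZ6983 mice it was 0.89 (exact permutation p = 0.0208). For Mfap4, Mfap5, Lox and Fbn1, r with Eln lay between 0.61 and 0.70 with an adjusted p of 0.0548 to 0.06 (permutation test), and without A2 and C5 between 0.44 and 0.65. Their rho lay between 0.55 and 0.73, and by rho Mfap5 had an adjusted p of 0.0439 (permutation test). For Fbln1, Fbln5 and Efemp2 r lay between 0.52 and 0.55, and for Fbn2 it was 0.24. After each group's mean was subtracted, r with Eln was higher for Efemp2 (0.86), Mfap4 (0.78) and Fbln5 (0.72) and lower for Fbln2 (0.81), Lox (0.60), Mfap5 (0.57), Fbln1 (0.53) and Fbn1 (0.45). Among all 15856 other genes tested, Efemp2 then ranked 31, Fbln2 103, Mfap4 179 and Fbln5 492 in likeness to Eln, while Lox ranked 1419, Mfap5 1667, Fbln1 2006 and Fbn1 2858. The 5 most alike were Btbd19 (r = 0.97), Kif13b (0.94), Anapc7 (0.92), St6galnac4 (0.91) and Plekho2 (0.91), over the same 12 mice, whose libraries differ in depth and tissue makeup, which is a description and not a test.

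A ratio of 2 genes within a library does not depend on scaling. These 8 ratios were computed after the levels had been seen. The log2 ratio of Efemp2 to Eln was between -3.84 and -3.53 in control mice and between -4.25 and -3.91 in AZ6983 mice. The groups did not overlap, and 1.7% of all genes set against Eln were likewise lower in AZ6983 mice without overlap. The means were -3.67 ± 0.133 for controls and -4.11 ± 0.139 for AZ6983 (SD, n = 6 each), a difference of -0.44 (exact permutation p = 0.00216, the smallest that 6 mice against 6 allow, and 0.127 when adjusted over all 15856 genes). With each mouse left out in turn it stayed between -0.48 and -0.42. Fbln5 to Eln differed by -0.36 (exact permutation p = 0.0108, adjusted over all genes 0.149) and Mfap4 to Eln by -0.27 (exact permutation p = 0.0281, adjusted 0.183), where 24.1% of all genes were lower at an unadjusted p under 0.05. Fbn1 to Eln differed by 0.02 (exact permutation p = 0.92). The remaining ratios differed by -0.22 for Fbln1, -0.19 for Lox, -0.14 for Fbln2 and -0.13 for Mfap5 (exact permutation p = 0.141, 0.203, 0.197 and 0.34). Eln itself had a higher mean in AZ6983 mice, and 88.1% of all genes had a negative difference to Eln, with a median of -0.30, and 16.4% lay below Efemp2.

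**Figure D4:**
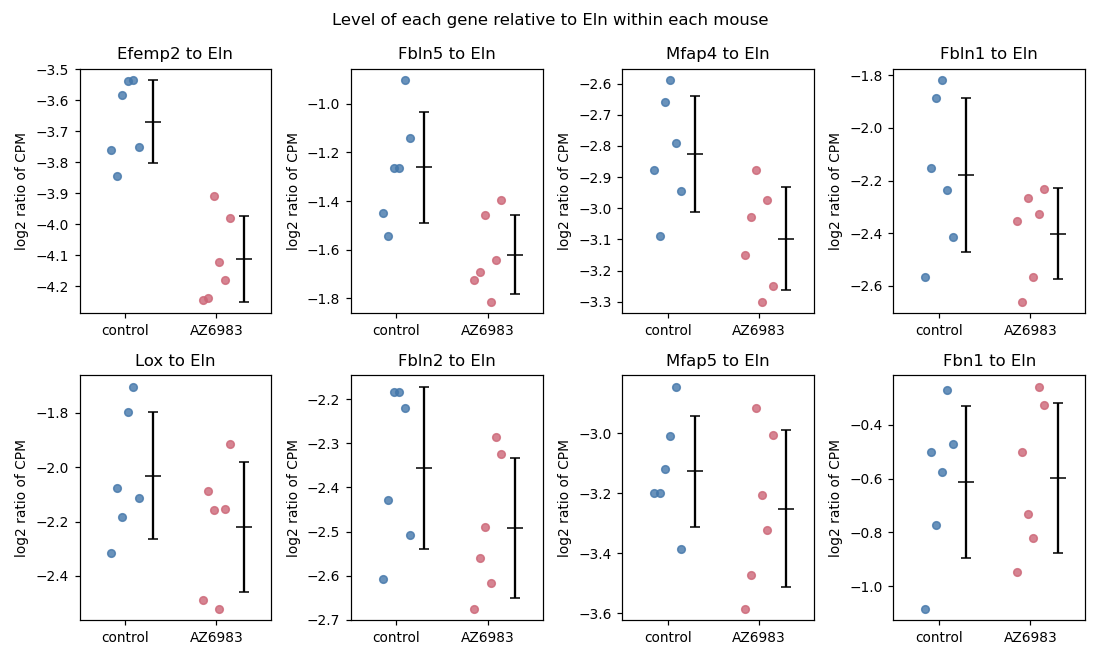
Log2 ratio of each gene's CPM to that of Eln in the same mouse (points), with the mean and SD of 6 mice per group, ordered by the difference between groups. For Efemp2 all 6 AZ6983 mice are below all 6 controls, and for Fbn1 the groups coincide.

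Fbln5 and Efemp2, which varied alike, are shown with Fbln1, a fibulin that varied less with them (r = 0.34 and 0.49), by the 250 bases before an annotated start (RefSeq, GRCm38.p6, 5′ to 3′ on the gene's strand). Capitals mark GC boxes, the letters GGGCGG on either strand, which 32.9% of 27025 promoters hold in the same window. Of the 10 genes, 5 matched the promoter table by symbol, and these 3 have a window outside the annotated gene.
Efemp2 (chr19:5473696-5473945, plus strand): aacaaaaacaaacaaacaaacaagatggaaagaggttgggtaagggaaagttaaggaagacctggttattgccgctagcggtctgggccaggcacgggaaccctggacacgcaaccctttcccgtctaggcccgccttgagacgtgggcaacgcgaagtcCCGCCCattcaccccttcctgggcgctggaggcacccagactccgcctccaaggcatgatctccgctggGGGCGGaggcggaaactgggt
Fbln5 (chr12:101819120-101819369, minus strand): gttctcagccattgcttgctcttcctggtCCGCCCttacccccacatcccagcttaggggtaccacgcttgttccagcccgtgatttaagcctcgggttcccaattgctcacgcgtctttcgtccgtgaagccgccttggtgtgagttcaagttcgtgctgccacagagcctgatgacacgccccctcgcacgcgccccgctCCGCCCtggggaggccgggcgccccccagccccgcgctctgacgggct
Fbln1 (chr15:85205699-85205948, plus strand): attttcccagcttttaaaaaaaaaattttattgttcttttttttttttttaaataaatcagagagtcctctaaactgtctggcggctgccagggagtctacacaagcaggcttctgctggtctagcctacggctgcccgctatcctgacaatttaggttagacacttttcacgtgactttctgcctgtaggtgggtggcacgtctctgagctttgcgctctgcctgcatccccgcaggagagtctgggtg
These windows of Efemp2 and Fbln5 hold 2 GC boxes each and that of Fbln1 holds 0, with 59.2%, 65.2% and 46.4% of G or C bases in that order. The order is not kept at the other annotated starts of the same genes. The other window of Fbln1 (chr15:85205758-85206007) holds 1 GC box and has 62.4% of G or C bases, the other window of Fbln5 (chr12:101818485-101818734) holds 0 and has 49.6%, and the other windows of Efemp2 hold 5 each. None of the 3 printed windows holds the letters TATAAA on either strand, which 13.0% of promoters do. These matches describe letters only.

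Of the other genes of the pathway, 43 of the 46 in the table could be tested and none passed 10% FDR. Among 20 tested genes of microfibrils and elastic fibres, 5 were higher and 0 lower at an unadjusted p under 0.05 (7.38% and 2.81% of all genes), and the median log2 fold change was 0.15. Mmrn2, an endothelial protein of the EMILIN family, was at 62.9 to 75.4 CPM in controls and 78.7 to 84.4 CPM in AZ6983 mice, so the groups did not overlap (log2 fold change 0.16, SE 0.0510, edgeR adjusted p = 0.447). That held for 1 of the 20 tested genes of this list and for 0.41% of all genes. The 4 endothelial markers summed to 624 to 811 CPM and 690 to 798 CPM, most of it Pecam1 (405 to 557 and 373 to 534 CPM). The other 3 had higher ranges with AZ6983, as Mmrn2 did, and overlapped between groups: Tie1 was at 56.1 to 69.5 and 66.1 to 80.6 CPM, Cdh5 at 82.5 to 99.8 and 91.2 to 160 CPM and Kdr at 76.4 to 118 and 81.6 to 184 CPM. Their part in the value of Mmrn2 was not tested. Adamts10, whose product binds fibrillin-1, had a log2 fold change of 0.18 (SE 0.0694) and Bgn, the most abundant of the list, of 0.13 (SE 0.160). Emilin2, Adamtsl4 and Adamts17, named after their values were seen, had log2 fold changes of 0.23, 0.36 and 0.60. Emilin3 had at most 11 counts per mouse and was not tested.

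Of the 11 lysyl oxidase relatives and maturation genes, 2 were higher and 0 lower at an unadjusted p under 0.05, against 7.38% and 2.81% of all genes. Their median log2 fold change was -0.03. Tll1 encodes a tolloid-like protease of the family that cuts procollagens and the Lox proenzyme. It was at 2.55 to 4.19 CPM in control aortas and at 3.75 to 4.85 CPM in AZ6983 mice, 5 of which lay above every control (log2 fold change 0.48, SE 0.139, edgeR adjusted p = 0.447). Loxl2 had a log2 fold change of 0.26 (SE 0.113) and Loxl1, the most abundant and a crosslinker of elastin, of 0.14 (SE 0.112).

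Among 12 tested genes of elastin-degrading enzymes and their inhibitors, 1 was higher and 2 were lower at an unadjusted p under 0.05, where all genes gave 7.38% and 2.81%, and the median log2 fold change was -0.09. Mmp12, macrophage elastase, was at 33.1 to 79.2 CPM in control aortas and at 10.7 to 66.9 CPM in AZ6983 mice, with 4 of 6 AZ6983 mice below every control (log2 fold change -0.94, SE 0.405, edgeR adjusted p = 0.475). The 4 macrophage markers summed to 138 to 229 CPM and to 139 to 236 CPM, the largest part being Csf1r (86.3 to 132 and 92.3 to 134 CPM). Adgre1 was at 29.7 to 50.7 and 32.4 to 57.5 CPM. Cd68 was at 15.6 to 31.6 and 11.9 to 34.4 CPM, and Trem2 at 6.14 to 15.4 and 2.66 to 16.9 CPM. For Cd68 and Trem2 the AZ6983 range reached both lower and higher than that of controls. The part of these markers in the value of Mmp12 was not tested. Timp1, an inhibitor of metalloproteinases that was named after its values were seen, had 5 of 6 AZ6983 mice below every control (log2 fold change -0.66, SE 0.301), with A2 at 38.3 CPM and the other 5 at 11.2 to 16.9 CPM. For Mmp9, a gelatinase, the log2 fold change was 0.51 (SE 0.233), and for Timp3, the most abundant of the list, it was -0.04 (SE 0.0754). Elane, neutrophil elastase, had at most 1 count in a control library and 1 to 12 in those of AZ6983, too few for edgeR's filter, and was named after its values were seen. Prtn3, the gene of a neutrophil serine protease, was also below the filter, with 1 to 17 counts in controls and 5 to 14 with AZ6983 (exact permutation p = 0.104 for Prtn3 and 0.00433 for Elane). These p are unadjusted. Because Elane was picked after its values were seen and has so few counts, its p is a description and not a test. The 4 neutrophil markers summed to 11.7 to 45.6 CPM and to 27.0 to 218 CPM (exact permutation p = 0.0238, and 0.262 when adjusted over 11 marker lists), and their part in the values of Mmp9 and Elane was not tested.

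**Figure D5:**
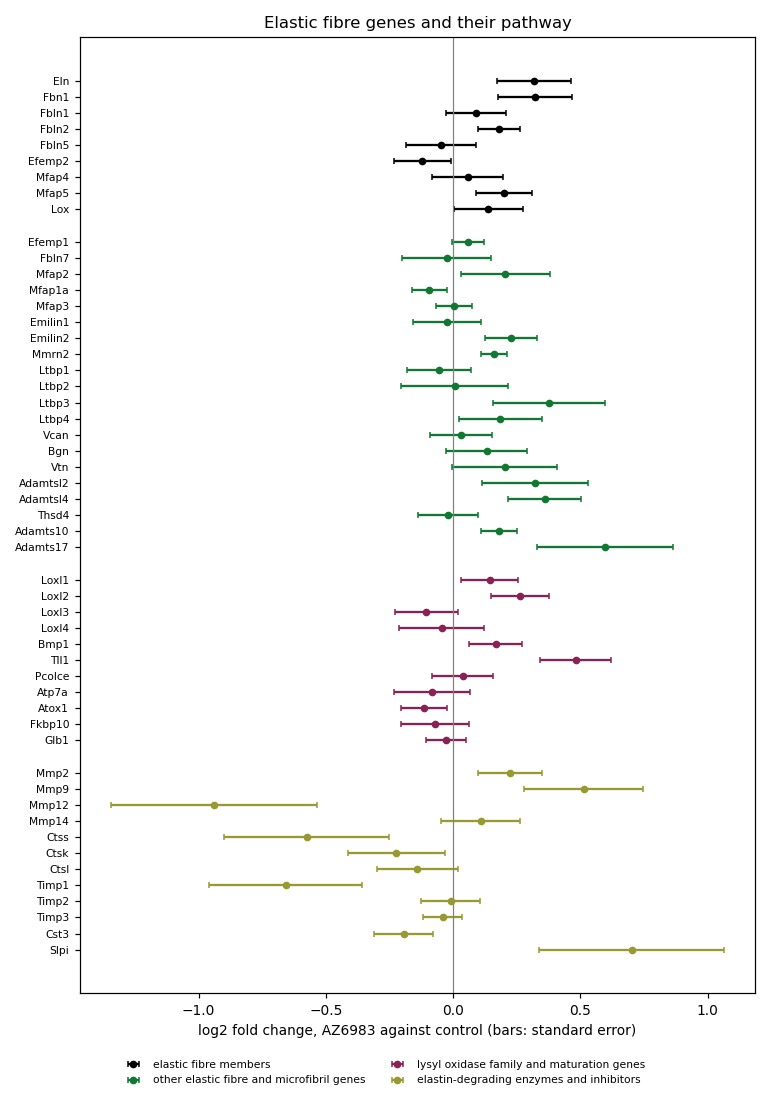
Log2 fold change of AZ6983 against control mice from edgeR with its standard error, for 9 elastic fibre genes and 43 other genes of the pathway in 3 groups. Values of the elastic fibre genes lie between -0.12 and 0.32, and Mmp12 at -0.94 is the lowest shown.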

How the data were processed

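RNA sequencing of thoracic aorta was done on 1 library per mouse, 6 mice per group. The authors depleted ribosomal RNA, made strand-specific libraries and deposited raw counts per gene symbol, and their processing notes name CASAVA 1.8.2, STAR 2.5.2b, HTSeq 0.6.1p1 and mm10 without saying what each did. Since RNA was not selected for poly(A), unspliced RNA can add to the counts. The annotation is not given in the sources used here. Rows that name no gene were left out, with 8.02% to 14.9% (no gene), 18.1% to 23.2% (several places) and 0.606% to 0.698% (several genes) of the reads per mouse.

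Groups came from the labels. Counts were tested with edgeR 4.0.16 in R 4.3.3 (filterByExpr, TMM, quasi-likelihood test, no covariate, Benjamini-Hochberg over 15857 genes, 10% FDR). The standard error is the absolute log2 fold change over the root of edgeR's F. Log2 CPM used a prior count of 2. Single values were tested by exact permutation over 924 assignments of mice, two-sided, and correlations by 100000 permutations. Alternatives were DESeq2 1.42.0, limma-voom (limma 3.58.1), other scalings and filters, a covariate for reads that fell on no gene, and each mouse left out. No 2 libraries were copies (chi-square per degree of freedom 13.1 to 247 over 66 pairs). Labels say nothing of litter or batch. The steps were tested on simulated data. Gene positions and exon lengths are from GENCODE M21 (GRCm38), matched by symbol.

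The elastic fibre genes and the other lists were chosen with earlier results of these data known. All 10 elastic fibre genes are described. Of each other list the text names the 2 genes with the smallest p, any that passed 10% FDR and the most abundant, and for likeness to Eln the 5 genes with the highest r. Ctsv and Mmp7 have no row in the table, and Emilin3, Elane and Prtn3 were below the filter.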

Additional observations from a re-analysis of the deposited data

Results flagged for a closer look

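Of 48 groups of 6 mice (the 10 elastic fibre genes, 11 marker sums and 3 measures of the libraries, in each treatment group), 4 held 1 mouse whose gap to its nearest neighbour was large for the range of the group, and about 2.4 such groups arise by chance. Fbn2 was low in mouse A3 (-2.13 log2 CPM, the other AZ6983 mice -1.36 to -0.95), which rests on 4 counts. Log2 summed CPM of fat markers was high in A5 (13.1, the others 11.9 to 12.4), that of T cell and thymus markers was high in A4 (9.81, the others 2.34 to 5.13), and that of mesothelium markers was low in A3 (-0.28, the others 3.34 to 4.18). No cause was tested for these values.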

How the results depend on the processing

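The count of genes passing 10% FDR was 0 in edgeR, 2 with library totals alone and 92 with DESeq2, and 0 to 27 with a mouse left out (27 without A5, 1 each without C6 and A1). Genes with an unadjusted p under 0.05 were 467 with a covariate for reads that fell on no gene and 1046 to 2233 with a mouse left out (fewest without C1). Of the elastic fibre genes, 3 had an unadjusted p under 0.05, against 1 in limma-voom, 0 with upper quartile scaling, library totals, no filter or the covariate, and 0 to 3 with a mouse left out (0 without C2, C3, C4, C5, A1 or A2, and 1 without C1, A3 or A6). Pathway genes numbered 10, against 4 with library totals, 2 with the covariate and 2 to 9 with a mouse left out (fewest without C5, at most 6 without C1, C3, A1, A3 or A6). No elastic fibre gene passed 10% FDR in any fit, with adjusted p from 0.244 to 1. Of 180 log2 fold changes under an alternative, 173 kept their sign. Those that did not were Fbn1 (-0.0279) and Lox (-0.0820) with the covariate, Fbln5 (-0.122 to 0.0462, positive without C6 or A5) and Mfap4 (-0.0547 to 0.121, negative without C2, C5 or A2) with a mouse left out, and the cause was not tested. The log2 ratio of Fbn1 to Eln ran from -0.0784 to 0.0858 with a mouse left out, and that of Mfap4 to Eln had an exact permutation p above 0.05 without C3, C4, C5, A1, A4 or A6.

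With library totals in place of TMM, r with Eln was 0.69 for Fbn1, 0.69 for Fbln1, 0.68 for Fbln5, 0.68 for Efemp2, 0.79 for Mfap4, 0.77 for Mfap5 and 0.72 for Lox, each with an adjusted permutation p under 0.05. Without TMM, a library's scaling factor (0.837 for A5 to 1.07 for A3) stays in both genes of a pair. Its part in these higher values was not tested. After the group means were subtracted r with Eln was 0.72 for Fbln5, 0.86 for Efemp2 and 0.78 for Mfap4, also past that threshold. It was lower than without this step for Fbn1 (0.45), Fbln1 (0.53), Fbln2 (0.81), Mfap5 (0.57) and Lox (0.60), of which Fbln2 stayed past the threshold. Among controls alone r was 0.54 for Fbln5, 0.65 for Mfap4 and 0.85 for Efemp2 (exact permutation p = 0.281, 0.175 and 0.0444). Among AZ6983 mice it was 0.84, 0.86 and 0.88 in that order (exact permutation p = 0.0361, 0.0222 and 0.00972). Per kb of the longest transcript the median CPM was 214 for Eln, 52.9 for Fbln5, 46.0 for Fbln1, 35.4 for Mfap5, 30.8 for Fbln2 and 20.97 for Efemp2. Eln was first and Fbn2 last as before, but Fbln1 moved from place 6 to 4, above Fbn1 (44.2) and Lox (39.7). Efemp2 to Eln kept its direction, with an exact permutation p of 0.00433, with each of the 12 mice left out. Groups that do not overlap fix both in advance, so this adds no support. No paired analysis was possible because the labels give the groups no shared replicate numbers. Depth limits Fbn2, Emilin3, Elane and Prtn3.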
